A study of Mus musculus with 18 samples.

Results

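The caveola, transcytosis and fenestration genes of brain endothelium were followed in 18 RNA-seq libraries as a group of 7: the caveolins Cav1 and Cav2, the cavins Cavin1 and Cavin2, the diaphragm gene Plvap, the lipid transporter gene Mfsd2a and the transferrin receptor gene Tfrc. They were chosen by symbol, for their function and with earlier results of these data known, and are 7 of the 57010 genes counted. All 7 passed the filter on low counts, as did 17531 genes in all. RNA came from brain endothelial cells isolated from mice at postnatal day 57. The 5 Hypoxia KO and 5 Normoxia KO libraries came from Slco1c1-iCreERT2;Pdcd10fl/fl;Aldh1l1-EGFP/Rpl10a mice, and the 4 Hypoxia flox and 4 Normoxia flox libraries from Pdcd10fl/fl; Aldh1l1-EGFP/Rpl10a littermates. The Slco1c1 promoter drives a tamoxifen-dependent Cre in brain endothelium (and choroid plexus epithelium), the floxed Pdcd10 alleles are shared by all 4 groups, and so is the astrocyte reporter Aldh1l1-EGFP/Rpl10a. Pups received 50 µg of 4-hydroxytamoxifen into the stomach on postnatal day 1. The design text also names driver-positive animals left uninjected as controls, without saying which libraries, if any, they gave. Hypoxia was 12% oxygen for 7 days and normoxia was 21% oxygen. Whether each library is 1 animal is not stated, so the p values measure the spread between these libraries.

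CCM3, the adaptor protein that Pdcd10 encodes, is needed in endothelium, and its absence causes cerebral cavernous malformations, clusters of leaky, dilated vessels. Caveolae are flask-shaped pits of the plasma membrane that carry plasma proteins across many endothelia. Caveolin-1 builds their coat with caveolin-2, and the cavins (cavin-1 above all) stabilise it from the cytosol. Brain endothelium keeps this vesicle traffic low: MFSD2A, a sodium-dependent transporter of lysophosphatidylcholine that carries docosahexaenoic acid into the brain, is known to suppress caveola-mediated transcytosis there. PLVAP forms the diaphragms of fenestrae and caveolae and is largely lost from brain capillaries as the barrier matures. The transferrin receptor takes up iron-loaded transferrin through clathrin-coated pits and is a classical marker of brain capillaries.

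The 250 bases upstream of the start are printed for 3 members: Mfsd2a because it was the only member past the test in any comparison, and Cav1 and Cav2 because these neighbouring genes of 1 protein complex stood in different proportions in the groups. The sequences are from RefSeq on GRCm38.p6, a build older than the GRCm39 on which the reads were counted, and read 5′ to 3′ on the strand of the gene. Capitals mark ACGTG, a form of the core that hypoxia-inducible factors read, and GGGCGG, the GC box of SP factors, or their reverse complements CACGT and CCGCCC. The other form of that core, GCGTG, was not searched and is not marked.
Mfsd2a, chr4:122961189-122961438, minus strand: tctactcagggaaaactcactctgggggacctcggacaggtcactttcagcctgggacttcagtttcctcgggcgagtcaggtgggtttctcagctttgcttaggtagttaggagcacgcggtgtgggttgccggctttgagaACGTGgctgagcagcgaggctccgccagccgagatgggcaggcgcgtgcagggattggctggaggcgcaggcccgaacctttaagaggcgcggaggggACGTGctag
Cav1, chr6:17306085-17306334, plus strand: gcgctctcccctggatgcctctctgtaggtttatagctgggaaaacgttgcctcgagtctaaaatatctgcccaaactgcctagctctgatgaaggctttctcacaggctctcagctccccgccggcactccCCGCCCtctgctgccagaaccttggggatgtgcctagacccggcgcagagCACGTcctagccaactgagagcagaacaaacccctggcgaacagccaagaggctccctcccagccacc
Cav2, chr6:17280935-17281184, plus strand: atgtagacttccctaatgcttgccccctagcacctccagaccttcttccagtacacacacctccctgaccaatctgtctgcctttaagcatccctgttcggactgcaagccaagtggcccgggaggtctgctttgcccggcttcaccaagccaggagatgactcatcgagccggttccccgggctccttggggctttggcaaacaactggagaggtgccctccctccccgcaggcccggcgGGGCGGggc
In the Mfsd2a window ACGTG starts 107 and 9 bases before the start site. The Cav1 window holds 1 ACGTG at 68 bases and 1 GGGCGG at 118 bases before the start. A second Cav1 start, with the window chr6:17307390-17307639, has 0 matches to either and is not printed. The Cav2 window holds 1 GGGCGG at 9 bases. Searched on both strands, ACGTG occurs in 16.6% of the 32851 mouse windows of this length and occurs 2 or more times in 6.81%, while GGGCGG occurs in 32.7%. These matches describe letters and show neither binding nor a response. A window was found for 6 of the 7 members, and Plvap is named only. The other matched windows, of Cavin1, Cavin2 and Tfrc, hold CACCC, the box read by KLF factors, which 52% of all windows hold. It is absent from the 3 windows shown.

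Totals ran from 17.9 to 31.2 M counts per library. CPM below are counts scaled to TMM-adjusted library totals. RPKM are the deposited values, scaled by total and by gene length, and only on that scale are levels of different genes compared. The log2 fold changes (± SE) come from edgeR's quasi-likelihood test in 1 fit of the 4 groups. A gene was called where its p, adjusted over all 17531 genes by Benjamini-Hochberg, was under 0.05. Pdcd10 averaged 18.6 ± 1.90 CPM in Normoxia KO and 39.3 ± 6.14 CPM in Normoxia flox (SD, n = 5 and 4), a log2 change of -1.08 ± 0.14 (edgeR adjusted p = 5.02e-05), and 21.3 ± 2.77 CPM in Hypoxia KO against 48.0 ± 9.79 CPM in Hypoxia flox (-1.17 ± 0.14, edgeR adjusted p = 2.87e-05). Endothelial markers were abundant in every library, with Cldn5 between 1313 and 2407 CPM and Pecam1 between 1032 and 2007 CPM. Of the 10 endothelial markers, 1 was called higher and 2 lower in Normoxia KO, and 1 higher and 0 lower in Hypoxia KO. Over all tested genes the shares called higher and lower were 9.54% and 7.03% in normoxia, and 11.4% and 11% in hypoxia. The endothelial sums averaged 14623 ± 740 CPM in Normoxia KO and 16806 ± 2894 CPM in Normoxia flox (SD, n = 5 and 4). In hypoxia they averaged 15460 ± 673 CPM in KO and 17275 ± 1050 CPM in flox. Neuron markers summed to 1101 CPM in Normoxia KO 4 and 2003 CPM in Normoxia flox 4, against 33.1 CPM or less elsewhere. Smooth muscle markers, of which 8 of 10 were lower in KO at each oxygen level, summed to 299 to 478 CPM in Hypoxia KO against 569 to 934 CPM in Hypoxia flox. In normoxia they summed to 327 to 375 CPM in KO against 726 to 1289 CPM in flox. Arterial markers were lower for 7 of 10 in normoxia and 8 of 10 in hypoxia, and pericyte markers higher for 3 and 6 of 10. Choroid plexus epithelial markers were higher in KO for 0 of 6 in normoxia and 3 of 6 in hypoxia. No marker of these cell types was at 0 in every library, and their part in the results below was not tested. Immediate early genes (such as Fos and Jun) were uneven too. Their sums averaged 22505 ± 10821 CPM in Hypoxia KO and 8131 ± 8580 CPM in Hypoxia flox (SD, n = 5 and 4). In normoxia they averaged 20234 ± 14682 CPM in KO and 10515 ± 10935 CPM in flox. KO and flox overlapped, and 0 of these 10 genes were called at either oxygen level. The part of this imbalance in the results below was not tested. Xist and Y-linked counts, which differ by sex, differed between groups as well. Of the 5 Hypoxia KO libraries, Hypoxia KO 4 had a Y-linked sum of 226 CPM and the other 4 had 0.916 CPM or less. All 4 Hypoxia flox libraries had 232 to 279 CPM. Xist was 669 to 830 CPM in those 4 Hypoxia KO libraries, 0.145 CPM in Hypoxia KO 4 and 1.72 CPM or less in Hypoxia flox. Sex is not labelled. In every hypoxic KO against flox difference below, sex and genotype can largely not be told apart.

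Between KO and flox in normoxia 1 of the 7 members was called: Mfsd2a was lower in the KO libraries, a call lost in 9 of 26 alternatives. The other 6 did not pass the test. In this comparison 16.6% of all tested genes were called and 7.03% were called lower, so 1 of 7 is near the background share. After hypoxia 0 of 7 members were called between KO and flox, where 22.3% of all tested genes were, with 2 members, Cav1 and Mfsd2a, at an unadjusted p under 0.05 and 0 called by DESeq2. Hypoxia itself called 0 of 7 members in KO cells (background 1.48%) and 0 of 7 in flox cells (background 2.81%). There 4 and 1 members had an unadjusted p under 0.05, and DESeq2 called 1, Cav1, and 0. Between KO and flox in normoxia and between hypoxia and normoxia in flox, 0 of 7 members had libraries that did not overlap between the groups, as 14.7% and 8.5% of all tested genes do. Between KO and flox in hypoxia 1 of 7, Cav1, did not overlap (background 22.3%), and between hypoxia and normoxia in KO 2 of 7, Cavin2 and Plvap (background 3.83%). No member's genotype difference was called as changing with oxygen: 0 of 7 were called for the interaction (background 0.445%), at 0 unadjusted p under 0.05 and 0 DESeq2 calls. The median log2 change of the members was 0.07 in KO against flox in normoxia, beside -0.02 over all tested genes, and -0.01 in hypoxia, beside -0.0021 over all tested genes.

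**Figure D1:**
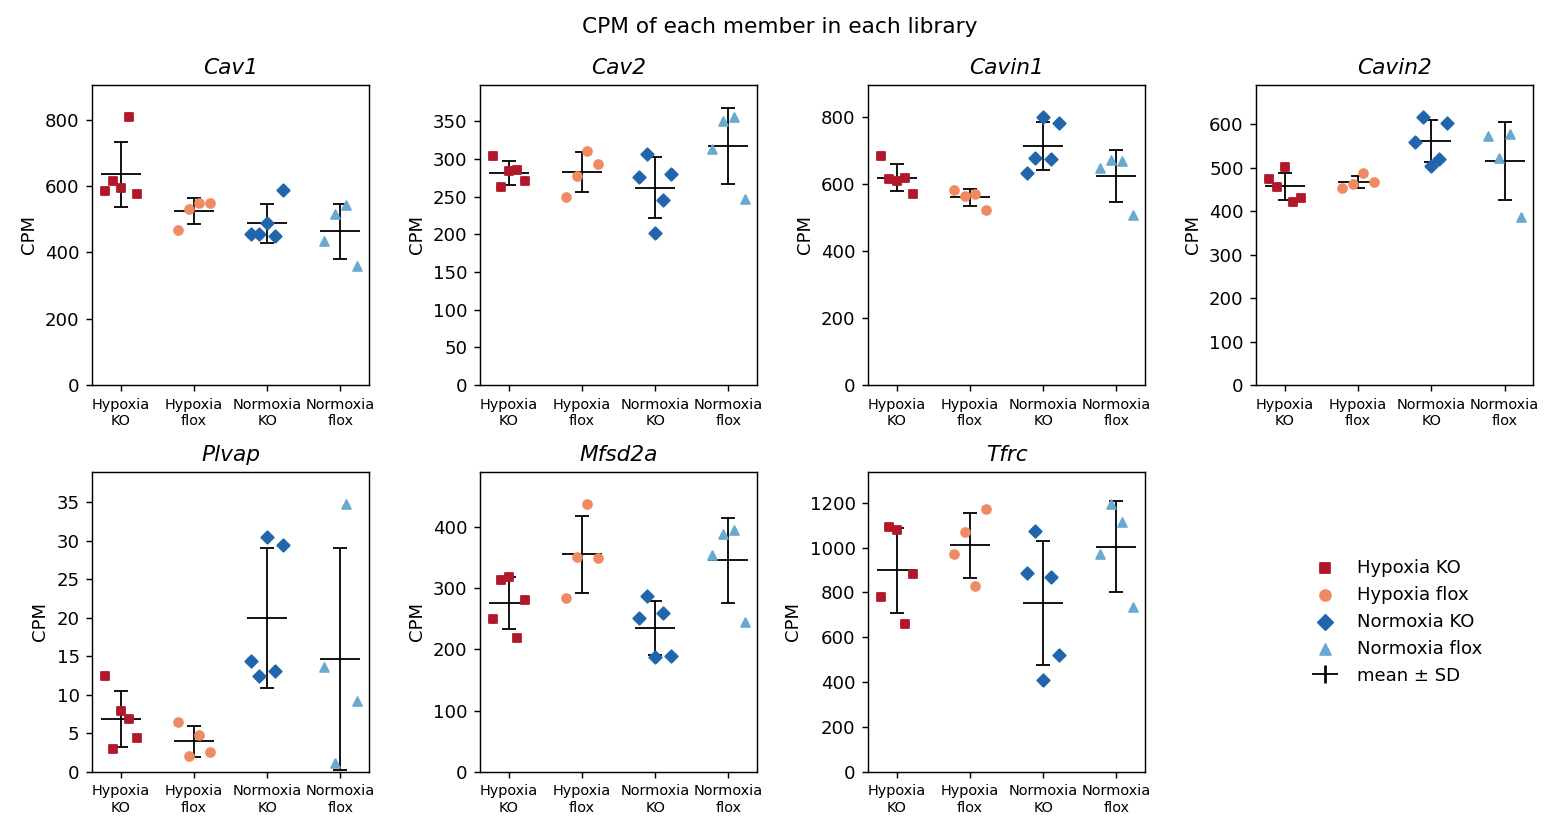
CPM (y axis) of each of the 7 genes in each library, grouped as Hypoxia KO, Hypoxia flox, Normoxia KO and Normoxia flox, with horizontal bars at the group mean and whiskers of 1 SD. Mfsd2a sits lower in KO at each oxygen level, Plvap is highest and most scattered in normoxia, and the caveolar genes keep narrow ranges.

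Of the 7 genes, 6 were among the most abundant transcripts of these cells and Plvap was not. By mean RPKM over the 18 libraries, Cavin1 (177 RPKM), Cavin2 (164 RPKM), Cav1 (154 RPKM), Tfrc (147 RPKM), Mfsd2a (133 RPKM) and Cav2 (85.4 RPKM) ranked between the 97.7th and the 99.0th percentile of the tested genes. Plvap, at 5.81 RPKM, stood at the 62.6th percentile, and by group at percentiles of 52.2 in Hypoxia KO, 41.2 in Hypoxia flox, 74.9 in Normoxia KO and 68.1 in Normoxia flox. Within each group Cav2 came next to last and Plvap last, with no overlap between these 2 genes. Among the upper 5 genes each neighbour in the order overlapped with the next. Mfsd2a was the fifth most abundant of the 7 in Hypoxia KO, at 117 ± 17.7 RPKM, and the second in Hypoxia flox, at 169 ± 31.4 RPKM (SD, n = 5 and 4). In normoxia it had rank 5 in KO, at 101 ± 16.5 RPKM, and rank 4 in flox, at 158 ± 35.0 RPKM (SD, n = 5 and 4).

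**Figure D2:**
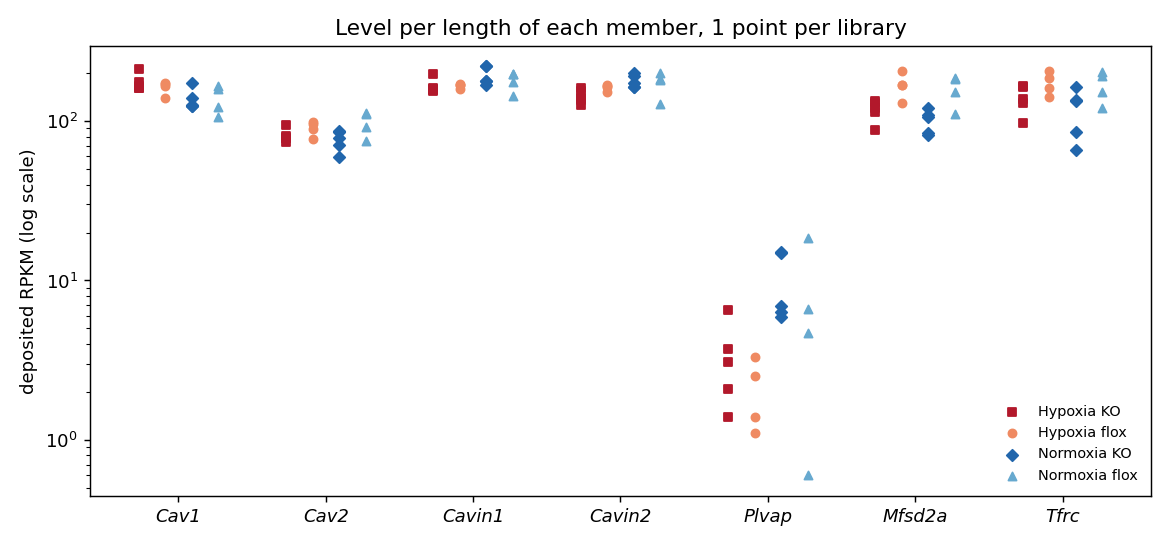
Deposited RPKM (log scale) of the 7 genes, 1 point per library, in the order Hypoxia KO, Hypoxia flox, Normoxia KO and Normoxia flox for each gene. Plvap, at 0.6 to 18.5 RPKM, lies far below the other 6 genes, which range from 59.6 to 220.5 RPKM.

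Cav1, the principal caveolar coat protein, was somewhat more abundant in hypoxia and in hypoxic KO cells, without passing the test. Its CPM were 585, 615, 594, 808 and 575 in Hypoxia KO (replicates 1 to 5), 468, 530, 550 and 548 in Hypoxia flox (replicates 2 to 5), 456, 455, 488, 448 and 589 in Normoxia KO (replicates 1, 2, 4, 5 and 6) and 435, 516, 542 and 359 in Normoxia flox (replicates 1 to 4). Every Hypoxia KO library stood above every Hypoxia flox library, a separation that 22.3% of all tested genes show in that comparison, and Hypoxia KO 4 stood far above the other 4. The difference between Hypoxia KO and Hypoxia flox was 0.28 ± 0.13 (edgeR adjusted p = 0.137), and that between Normoxia KO and Normoxia flox 0.07 ± 0.13 (edgeR adjusted p = 0.754). Hypoxia against normoxia gave 0.38 ± 0.12 in KO (edgeR adjusted p = 0.146, 95% interval 0.13 to 0.64) and 0.18 ± 0.14 in flox (edgeR adjusted p = 0.564). DESeq2 called the KO change with 0.41 ± 0.13 (adjusted p = 0.0485).

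Cav2, which needs caveolin-1 to reach caveolae, showed no such excess. It had 304, 262, 284, 285 and 271 CPM in Hypoxia KO, 249, 277, 311 and 294 CPM in Hypoxia flox, 276, 307, 202, 246 and 281 CPM in Normoxia KO, and 313, 351, 356 and 247 CPM in Normoxia flox. In normoxia all 5 KO libraries lay below 3 of the 4 flox libraries, and Normoxia flox 4 lay among the KO libraries. The normoxic difference was -0.27 ± 0.12 (edgeR adjusted p = 0.138), and -0.40 ± 0.11 without Normoxia flox 4 (edgeR adjusted p = 0.0187). Without that library and Normoxia KO 4, which hold the neuron markers, it was -0.33 ± 0.08 (edgeR adjusted p = 0.00968). In hypoxia the groups overlapped and differed by -0.01 ± 0.12 (edgeR adjusted p = 0.978, 95% interval -0.26 to 0.25).

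The proportion of the 2 caveolins on the RPKM scale was picked after the values were seen and is a description without a test. Cav1/Cav2 was 1.86 to 2.74 in Hypoxia KO and 1.72 to 1.85 in Hypoxia flox, and 1.43 to 2.35 in Normoxia KO against 1.34 to 1.48 in Normoxia flox. The flox libraries kept narrow ranges that did not meet between hypoxia and normoxia. The KO libraries spread more widely, and the hypoxic KO and flox ranges were apart by little.

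**Figure D3:**
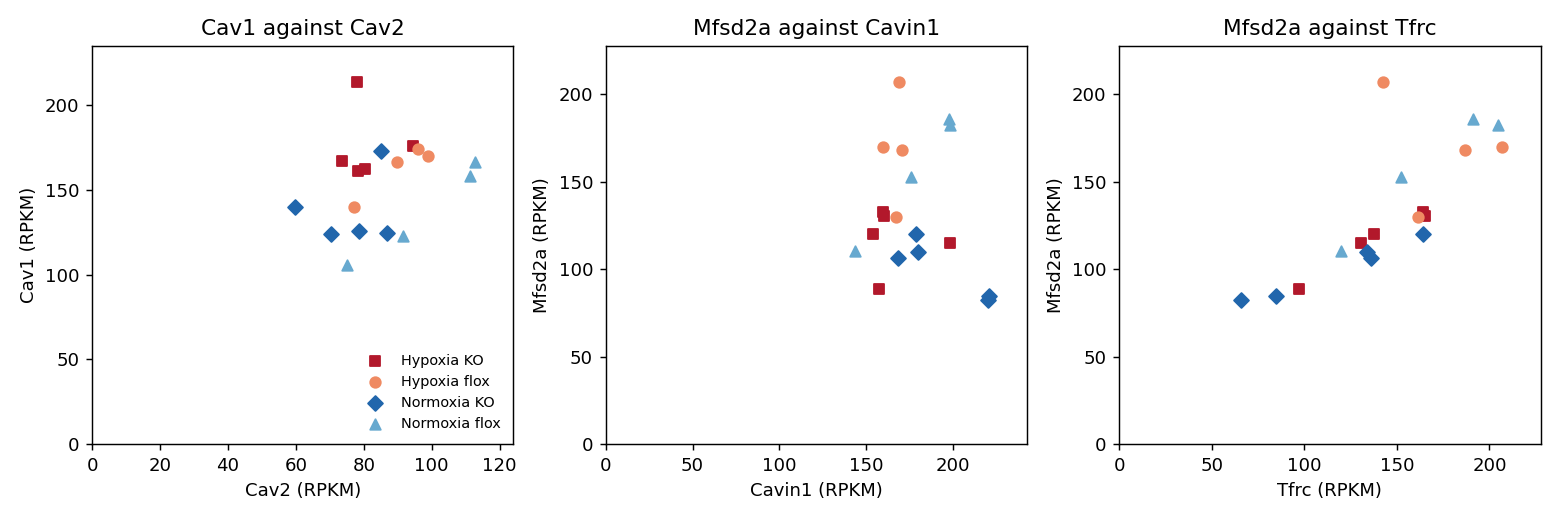
RPKM of gene pairs, 1 point per library coloured by group: Cav1 against Cav2, Mfsd2a against Cavin1, and Mfsd2a against Tfrc. In the caveolin plot the flox points of each oxygen level lie close to 1 line, Normoxia KO 4 and 6 combine the highest Cavin1 with the lowest Mfsd2a, and Mfsd2a and Tfrc fall and climb together over the libraries.

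The cavins were the steadiest members, with biological coefficients of variation of 12.4% for Cavin1 and 13.2% for Cavin2. Cavin1, the coat protein without which caveolae do not form, had 686, 616, 609, 619 and 572 CPM in Hypoxia KO, 583, 566, 570 and 524 CPM in Hypoxia flox, 635, 679, 801, 676 and 782 CPM in Normoxia KO and 649, 672, 670 and 508 CPM in Normoxia flox. The highest values were those of Normoxia KO 4 and 6 and the lowest that of Normoxia flox 4, and KO and flox overlapped at each oxygen level. KO against flox gave 0.19 ± 0.09 in normoxia (edgeR adjusted p = 0.177) and 0.15 ± 0.09 in hypoxia (edgeR adjusted p = 0.29). Hypoxia against normoxia gave -0.20 ± 0.09 in KO (edgeR adjusted p = 0.304) and -0.15 ± 0.10 in flox (edgeR adjusted p = 0.449).

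Cavin2, known for binding phosphatidylserine and bending the membrane, had 474, 456, 501, 422 and 431 CPM in Hypoxia KO, 452, 462, 487 and 466 CPM in Hypoxia flox, 560, 616, 505, 521 and 603 CPM in Normoxia KO and 574, 522, 578 and 387 CPM in Normoxia flox. All 5 Hypoxia KO libraries lay below all 5 Normoxia KO libraries, by a small margin, as for 3.83% of all tested genes. That difference was -0.30 ± 0.10 (edgeR adjusted p = 0.164), and -0.32 ± 0.06 (edgeR adjusted p = 0.0185) without Normoxia KO 4 and Normoxia flox 4. In flox cells the hypoxia change was -0.14 ± 0.11 (edgeR adjusted p = 0.57). KO against flox gave 0.12 ± 0.10 in normoxia (edgeR adjusted p = 0.485) and -0.03 ± 0.10 in hypoxia (edgeR adjusted p = 0.873). When libraries were instead scaled on the summed endothelial markers, which moved the median of all genes by 0.16 in normoxia, Cavin1 and Cavin2 were called higher in Normoxia KO than in Normoxia flox, with 0.39 ± 0.09 (edgeR adjusted p = 0.00482) and 0.32 ± 0.06 (edgeR adjusted p = 0.00122).

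Plvap was lower in hypoxia than in normoxia by the largest folds of the group, with a spread too wide to pass the test. Its CPM were 12.4, 2.96, 7.88, 6.83 and 4.39 in Hypoxia KO, 6.41, 2.10, 4.75 and 2.55 in Hypoxia flox, 14.4, 12.4, 30.4, 13.1 and 29.4 in Normoxia KO, and 13.6, 1.08, 34.8 and 9.21 in Normoxia flox. The hypoxic KO libraries all lay below the normoxic KO libraries, the closest pair nearly touching, as for 3.83% of all tested genes. In flox the normoxic libraries ran from the lowest to the highest value of the series, around the hypoxic ones. Hypoxia against normoxia gave -1.53 ± 0.62 in KO (edgeR adjusted p = 0.277, 95% interval -2.85 to -0.22) and -1.89 ± 0.71 in flox (edgeR adjusted p = 0.209, 95% interval -3.40 to -0.37). Without Normoxia flox 3, which has 34.8 CPM, the flox change was -1.004 ± 0.66 (edgeR adjusted p = 0.445), and without Normoxia flox 2, which has 1.08 CPM, -2.28 ± 0.56 (edgeR adjusted p = 0.0507). KO against flox gave 0.44 ± 0.63 in normoxia (edgeR adjusted p = 0.693) and 0.80 ± 0.68 in hypoxia (edgeR adjusted p = 0.451), with 95% intervals of -0.91 to 1.79 and -0.66 to 2.25. Its biological coefficient of variation was 67.1%, against 12.4% to 15.4% for the caveolins and cavins and a median of 23.6% over all tested genes. Choroid plexus vessels, unlike brain capillaries, are fenestrated. Choroid plexus epithelial markers summed to 149 to 939 CPM in Hypoxia KO and 26.8 to 179 CPM in Hypoxia flox. In normoxia these sums were 110 to 1046 CPM in KO and 37.5 to 278 CPM in flox. The 2 KO libraries with most Plvap, Normoxia KO 4 and 6, had the highest sums of venous markers, 5893 and 5942 CPM, against 1831 to 4395 CPM in all other libraries. Normoxia flox 3, which had more Plvap than either, had a venous sum of 2994 CPM. Immediate early genes (such as Fos and Jun) summed to 3640 and 4708 CPM in Normoxia KO 4 and 6. They summed to 2032 CPM in Normoxia flox 3 and to 30357 to 32070 CPM in the other Normoxia KO libraries. Hypoxia flox 4 and 5, with 4.75 and 2.55 CPM of Plvap, had immediate early sums of 2143 and 1979 CPM. The part of these cells and genes in the Plvap values was not tested.

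Mfsd2a was on average lower in KO than in flox libraries. It had 249, 313, 318, 218 and 280 CPM in Hypoxia KO, 284, 350, 438 and 350 CPM in Hypoxia flox, 251, 287, 188, 259 and 189 CPM in Normoxia KO, and 354, 388, 396 and 245 CPM in Normoxia flox. In normoxia all 5 KO libraries lay below 3 of the 4 flox libraries and Normoxia flox 4 lay within the KO range. In hypoxia all 5 KO libraries again lay below 3 of the 4 flox libraries. Normoxia KO averaged 235 ± 44.4 CPM and Normoxia flox 346 ± 69.3 CPM (SD, n = 5 and 4), a log2 change of -0.56 ± 0.17 (edgeR adjusted p = 0.0321, 95% interval -0.92 to -0.20), or 0.679 times the flox level. Hypoxia KO averaged 276 ± 42.4 CPM against 356 ± 62.9 CPM in Hypoxia flox (SD, n = 5 and 4), a change of -0.37 ± 0.17 that did not pass (edgeR adjusted p = 0.135). These genotype differences did not differ from each other in the test (0.19 ± 0.24, edgeR adjusted p = 0.993, 95% interval -0.32 to 0.70). Hypoxia against normoxia gave 0.23 ± 0.16 in KO (edgeR adjusted p = 0.542) and 0.04 ± 0.18 in flox (edgeR adjusted p = 0.952). Capillary endothelial markers were called in both directions. Of 8, 1 was higher and 3 lower in Normoxia KO (median log2 change -0.11), and 1 higher and 4 lower in Hypoxia KO (median -0.41). Over all tested genes 9.54% were called higher and 7.03% lower in normoxia, and 11.4% and 11% in hypoxia. The capillary markers summed to 11757 to 14438 CPM in Normoxia KO against 12857 to 20156 CPM in Normoxia flox. In hypoxia they summed to 11106 to 15749 CPM in KO against 15379 to 18942 CPM in flox. Their part in the Mfsd2a difference was not tested. In a mixture of cells, fewer cells that express a gene and less RNA of it per cell cannot be told apart.

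The normoxic Mfsd2a call depended on the fit, though its sign did not. Libraries with equal replicate numbers deviated together in normoxia for numbers 1 and 4, and more weakly for 2. With these numbers as a block over the shared pairs the change was -0.49 ± 0.10 (edgeR adjusted p = 0.0633). It was -0.72 ± 0.16 without Normoxia flox 4 (edgeR adjusted p = 0.00478) and -0.66 ± 0.15 without both neuron-marker libraries (edgeR adjusted p = 0.00594). The call was lost without Normoxia flox 1, 2 or 3 or Normoxia KO 6, with adjusted p values of 0.061, 0.0876, 0.09 and 0.0655 and changes of -0.57, -0.52, -0.51 and -0.51. With the smooth muscle marker level as a covariate, on which KO and flox libraries do not overlap, the change was -0.28 ± 0.44 (edgeR adjusted p = 0.827).

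Mfsd2a can also be read against the caveolar coat. The RPKM ratio of Cavin1 to Mfsd2a, picked after the values were seen and given without a test, was 1.49 to 2.67 in Normoxia KO against 1.06 to 1.30 in Normoxia flox, without overlap. It was 1.20 to 1.78 in Hypoxia KO against 0.82 to 1.29 in Hypoxia flox, where Hypoxia flox 2 lay within the KO range.

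Tfrc, the route of transferrin iron across brain capillaries, varied most among the abundant members, with a biological coefficient of variation of 26.3%. It had 779, 1094, 1079, 658 and 883 CPM in Hypoxia KO, 971, 1069, 828 and 1172 CPM in Hypoxia flox, 885, 1074, 411, 869 and 519 CPM in Normoxia KO, and 970, 1195, 1116 and 734 CPM in Normoxia flox. Normoxia KO 4 and 6 were by far the lowest, and KO and flox libraries overlapped at each oxygen level. KO against flox gave -0.42 ± 0.24 in normoxia (edgeR adjusted p = 0.279, 95% interval -0.93 to 0.09) and -0.17 ± 0.24 in hypoxia (edgeR adjusted p = 0.677). Hypoxia against normoxia gave 0.26 ± 0.23 in KO (edgeR adjusted p = 0.649) and 0.01 ± 0.26 in flox (edgeR adjusted p = 0.995). Its values moved with those of Mfsd2a: over the 18 libraries Pearson's r of log2 CPM was 0.81, and 0.76 after the group means were taken out. This is a description over libraries that share groups and depth, without a test. The same 2 libraries, Normoxia KO 4 and 6, were lowest for both genes and highest in venous markers. They also had the lowest immediate early sums of their group, 3640 and 4708 CPM. Normoxia flox 3, with an immediate early sum of 2032 CPM, had 1116 CPM of Tfrc. The part of these differences in the values was not tested.

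**Figure D4:**
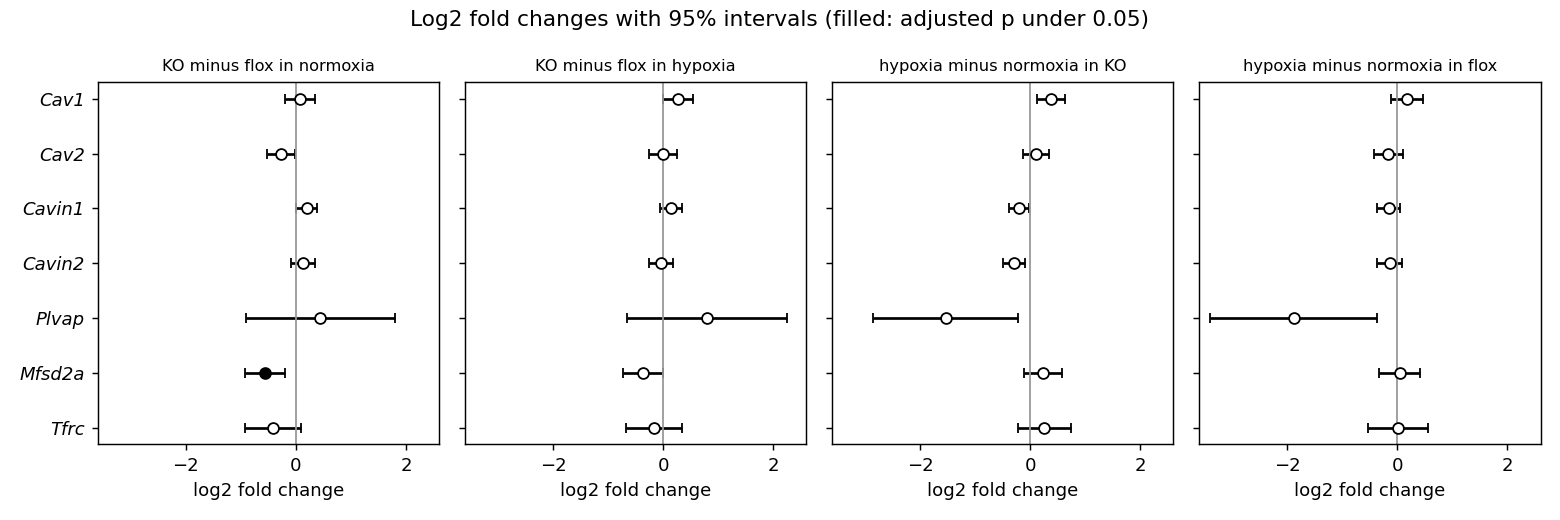
Log2 fold changes (points) with 95% intervals (bars) of the 7 genes in the 4 comparisons, filled where the edgeR adjusted p is under 0.05. Only Mfsd2a in KO minus flox in normoxia, at -0.56, is filled, and the Plvap intervals are the widest.

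Several genes that work around the members were called, from lists drawn up with earlier results of these data known. Of 13 caveola accessory genes (further cavins and caveolins, PACSIN and EHD membrane-bending proteins, dynamin-2 and flotillins), 12 were tested and Cav3 was not. In normoxia 3 of 12 were called higher in KO libraries and 0 lower (median log2 change 0.21), beside 9.54% of all tested genes called higher. In hypoxia 5 of 12 rose and 0 fell (median 0.34), beside 11.4% called higher. Ehd1, an ATPase of endocytic recycling, had 195 to 247 CPM in Normoxia KO against 92.2 to 101 CPM in Normoxia flox (1.23 ± 0.11, edgeR adjusted p = 1.82e-06). It had 169 to 256 CPM in Hypoxia KO against 66.2 to 85.1 CPM in Hypoxia flox (1.39 ± 0.11, edgeR adjusted p = 1.54e-06). Its groups lay wholly apart at each oxygen level, as for 14.7% of all tested genes in normoxia and 22.3% in hypoxia. Pacsin2, whose F-BAR protein shapes the caveolar neck, rose by 0.43 ± 0.06 in normoxia (edgeR adjusted p = 0.000178) and 0.52 ± 0.06 in hypoxia (edgeR adjusted p = 4.28e-05). Dnm2, the dynamin that cuts vesicles from the membrane, rose by 0.45 ± 0.07 in normoxia (edgeR adjusted p = 0.000493) and by 0.27 ± 0.07 in hypoxia (edgeR adjusted p = 0.0156). In hypoxia Ehd4 rose by 0.57 ± 0.12 (edgeR adjusted p = 0.00323) and Ehd2, which sits at the caveolar neck, by 0.40 ± 0.11 (edgeR adjusted p = 0.0164). Without Hypoxia flox 5, 3 genes were called in hypoxia, with Dnm2 at an adjusted p of 0.064 and Ehd2 at 0.0691. With the replicate block over shared numbers, 1 of 12, Ehd1, was called in normoxia, where that fit called 701 genes in all. The counts without the neuron-marker libraries were again 3 and 5. In hypoxia against normoxia 0 of 12 were called in KO, beside 1.48% of all tested genes. In flox 0 rose and 2 fell (beside 2.34% of all tested genes called higher and 0.462% called lower), Ehd4 (-0.61 ± 0.13, edgeR adjusted p = 0.0108) and Ehd3 (-0.34 ± 0.08, edgeR adjusted p = 0.0306). Both calls were fragile: leaving out Hypoxia flox 3 ended that of Ehd4, and leaving out Normoxia flox 1, 2 or 4 or Hypoxia flox 4 or 5 that of Ehd3, with an adjusted p of up to 0.103.

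Of 14 clathrin coat genes, on whose pits the transferrin receptor relies, 3 rose and 0 fell in Normoxia KO (median 0.05). In Hypoxia KO 2 rose and 1 fell (median 0.08). Over all tested genes 9.54% were called higher and 7.03% lower in normoxia, and 11.4% higher and 11% lower in hypoxia. Cltb, the light chain b of clathrin, had 223 to 270 CPM in Normoxia KO against 146 to 156 CPM in Normoxia flox (0.69 ± 0.11, edgeR adjusted p = 0.000245), and 212 to 298 CPM in Hypoxia KO against 115 to 151 CPM in Hypoxia flox (0.83 ± 0.11, edgeR adjusted p = 5.95e-05). Again no KO library met a flox library, as for 14.7% of all tested genes in normoxia and 22.3% in hypoxia. Ap2a2, a subunit of the AP-2 adaptor, rose by 0.43 ± 0.10 in normoxia (edgeR adjusted p = 0.0075) and 0.40 ± 0.10 in hypoxia (edgeR adjusted p = 0.0101). Ap2m1, another AP-2 subunit, rose by 0.44 ± 0.13 in normoxia (edgeR adjusted p = 0.0264), a call lost without Normoxia KO 4 or 6 or Normoxia flox 1 or 2 (adjusted p of up to 0.0943). Epn2, an epsin, fell by 0.28 ± 0.09 on the log2 scale in hypoxia (edgeR adjusted p = 0.0311), a call lost without Hypoxia KO 2 or 4 or Hypoxia flox 3 or 5 (adjusted p of up to 0.116). Cltc, the heavy chain, and Clta, the light chain a, were not called. The normoxic count was 5 without Normoxia flox 4 and 0 with the replicate block over shared numbers. That block called 701 genes in all, against 2905 in the main fit. Without the neuron-marker libraries the counts were 5 in normoxia and 6 in hypoxia. That fit also called more of all genes. In normoxia it called 1811 higher and 1965 lower, against 1673 and 1232 in the main fit. In hypoxia it called 2680 higher and 2862 lower, against 1994 and 1922. Hypoxia against normoxia called 0 of 14 in KO and in flox, beside 1.48% and 2.81% of all tested genes.

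The next list held 15 genes of barrier transport receptors and other surface proteins. Of these, 4 rose and 2 fell in Normoxia KO, and 3 rose and 3 fell in Hypoxia KO. Over all tested genes 9.54% were called higher and 7.03% lower in normoxia, and 11.4% higher and 11% lower in hypoxia. Insr, the insulin receptor, rose by 0.58 ± 0.11 in normoxia (edgeR adjusted p = 0.00181) and 0.54 ± 0.11 in hypoxia (edgeR adjusted p = 0.00309). Bsg, which encodes the abundant surface protein basigin, averaged 9037 ± 1744 CPM in Normoxia KO and 5255 ± 499 CPM in Normoxia flox (SD, n = 5 and 4), a rise of 0.78 ± 0.14 (edgeR adjusted p = 0.000797). Fcgrt, the neonatal Fc receptor, rose by 0.52 ± 0.13 in normoxia (edgeR adjusted p = 0.00866). In hypoxia it rose by 0.40 (edgeR adjusted p = 0.0288), a call lost in 12 of 26 alternatives. Cd320, the transcobalamin receptor, fell by 0.70 ± 0.16 on the log2 scale in hypoxia (edgeR adjusted p = 0.0047). Alpl, tissue-nonspecific alkaline phosphatase, fell by 1.40 ± 0.27 on the log2 scale in normoxia (edgeR adjusted p = 0.00195) and by 1.95 ± 0.28 in hypoxia (edgeR adjusted p = 0.000155). Alpl is also expressed in arterial endothelium, whose markers were lower in KO, and their part in its change was not tested. With the smooth muscle covariate its normoxic change was 0.16 (edgeR adjusted p = 0.929). KO and flox libraries do not overlap on that covariate, so this fit cannot separate it from genotype. The hypoxic change of Alpl ran from -2.33 to -0.91 over 26 alternatives. Cd36, the fatty acid translocase, had 0.70 to 3.99 CPM in Hypoxia KO against 0.05 to 0.59 CPM in Hypoxia flox (3.31 ± 0.69, edgeR adjusted p = 0.00288), levels of few counts. With the replicate block over shared numbers, 1 of 15 was called in normoxia, where that fit called 701 genes in all. Hypoxia against normoxia called Lrp8 higher and Alpl lower in KO and 0 of 15 in flox, beside 1.48% and 2.81% of all tested genes. Neither KO call held in each of the 10 fits that left out a library, with adjusted p values of up to 0.136 and 0.0989, each without Hypoxia KO 2.

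Of 20 iron handling genes, 19 were tested and Tfr2 was not. In normoxia 0 rose and 2 fell in KO, and in hypoxia 2 rose and 1 fell. The background shares are those given for the receptors, 7.03% lower in normoxia and 11.4% higher and 11% lower in hypoxia, and nothing particular to the list is read from these counts. Slc39a8, a metal importer of the ZIP family, was lower at each oxygen level: 94.5 to 115 CPM in Normoxia KO against 127 to 229 CPM in Normoxia flox (-0.82 ± 0.15, edgeR adjusted p = 0.0013), and 101 to 173 CPM in Hypoxia KO against 241 to 279 CPM in Hypoxia flox (-0.83 ± 0.15, edgeR adjusted p = 0.00121). Its libraries did not overlap between genotypes, a separation that 14.7% of all tested genes show in normoxia and 22.3% in hypoxia. Cp, the ferroxidase ceruloplasmin, fell by 1.13 ± 0.28 on the log2 scale in normoxia (edgeR adjusted p = 0.011). Bmp6, the endothelial ligand that signals iron load in liver, rose by 1.67 ± 0.25 in hypoxia (edgeR adjusted p = 0.000201). Steap4, a metalloreductase, had 1.05 to 10.4 CPM in Hypoxia KO against 0.78 to 0.88 CPM in Hypoxia flox (2.07 ± 0.59, edgeR adjusted p = 0.0189). Its change was 1.07 ± 0.33 without Hypoxia KO 4, which has 10.4 CPM (edgeR adjusted p = 0.0378). The call was lost without Hypoxia flox 4 or 5 (adjusted p of up to 0.0534). Ferroportin (Slc40a1), the exporter, and the iron regulatory genes Aco1 and Ireb2 were not called. Hypoxia against normoxia called 1.48% of all tested genes in KO and 2.81% in flox. Of the 19 iron handling genes 1, the ferrireductase Steap3, was called in KO (0.67 ± 0.14, edgeR adjusted p = 0.0278), and 2 in flox, Steap3 (0.66 ± 0.16, edgeR adjusted p = 0.0289) and Bmp6 (-1.10 ± 0.25, edgeR adjusted p = 0.0226). Each of these 3 calls was lost when some single libraries were left out, with adjusted p values of up to 0.097 (without Hypoxia KO 2), 0.13 and 0.0851 (each without Hypoxia flox 5). The replicate block over shared numbers left 1 of 19 called between KO and flox in normoxia, and 701 genes in all.

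**Figure D5:**
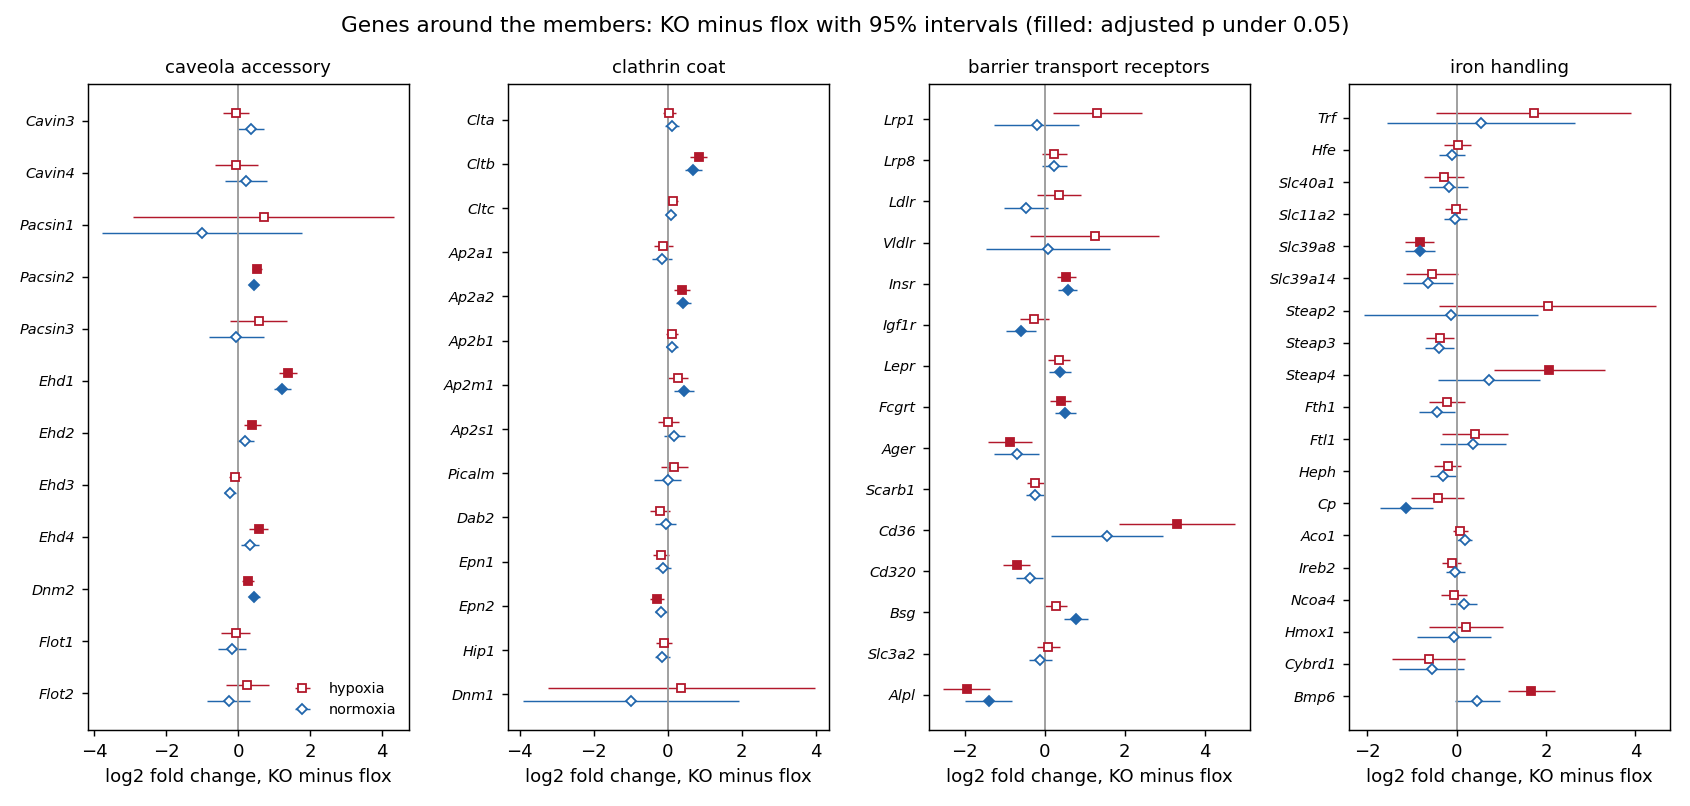
Log2 fold change of KO minus flox (x axis, with 95% intervals) for the tested genes of the caveola accessory, clathrin coat, barrier transport receptor and iron handling lists, hypoxia above normoxia for each gene, filled where the edgeR adjusted p is under 0.05. Ehd1 and Cltb stand to the right and Slc39a8 and Alpl to the left at each oxygen level.

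The genes whose log2 CPM followed each member most closely over the 18 libraries, among 9914 well-expressed genes, are given as a description without a test, since libraries share groups and scaling. Cav1 was closest to Eng, which encodes the TGF-beta co-receptor endoglin (Pearson's r 0.90, Spearman's rho 0.83), and to Flt4, the VEGF receptor of lymphatic and some venous endothelium (0.88 and 0.82), with Igfbp7 next (0.87 and 0.77). Cav2 was closest to Adgrf5 (0.88 and 0.86) and to the BMP receptor gene Bmpr2 (0.88 and 0.88), with Knop1 next (0.88 and 0.78). Cavin1 followed Sqor (0.91 and 0.89) and the caveolar gene Ehd2 (0.90 and 0.92), and then Efemp2 (0.90 and 0.85). Cavin2 was closest to Nup160 (0.87 and 0.83), Esyt2 (0.87 and 0.85) and Vps36 (0.87 and 0.93). Mfsd2a was closest to Gpd2 (0.91 and 0.91), Usp43 (0.91 and 0.89) and Rasgrp3 (0.91 and 0.93). Tfrc was closest to Iws1 (0.93 and 0.72), Rbm25 (0.91 and 0.73) and Mios (0.91 and 0.76). Plvap, with the weakest likeness of the 7, was closest to Fam107a (0.77 and 0.76), Ptgis (0.76 and 0.78) and Ephx1 (0.76 and 0.86). The caveolins and cavins did not head each other's lists: r was 0.22 between Cav1 and Cav2 and 0.67 between Cavin1 and Cavin2. After the group means were taken out it was 0.49 and 0.52 for these pairs, and 0.78 between Cav2 and Cavin2.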

How the data were processed

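Stranded mRNA libraries of brain endothelial cells isolated from mice were sequenced. Per the submitters' processing notes the authors used HISAT2, edgeR and the GRCm39 build, and versions, counting settings and strand are not given in the sources used here. The deposited table of counts holds whole reads per gene and was tested as deposited. The deposited RPKM, per the file headers and values, are counts divided by the column total and a gene length: over 1453 genes above 20 RPKM they implied 1 length per gene to within 0.444%. Gene symbols came from a GRCm38 annotation, which named 91.3% of the 57010 identifiers. Without strand in the counting, overlapping antisense genes cannot be told apart.

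Counts were analysed in R 4.3.3 with edgeR 4.0.16 (filterByExpr, TMM, 1 model of 4 groups, robust quasi-likelihood F test, SE as log2 fold change over the square root of F, 95% intervals, Benjamini-Hochberg adjustment, threshold 0.05), checked on simulated data. The interaction is KO minus flox in hypoxia minus the same in normoxia. Alternatives were RLE, library-size and endothelial-marker scaling, no or a stricter filter, the legacy fit, DESeq2 1.42.0, limma-trend (limma 3.58.1) on RPKM, only the groups compared, the replicate block, sex, immediate early and smooth muscle covariates, and leaving out libraries. Equal replicate numbers deviated together for the normoxia pairs 1 and 4 (r = 0.58 and 0.85 over genes), so the block is given there. Pair 4 holds the neuron-marker libraries. For pair 2 r was 0.29, and Normoxia KO 2 was closer to Normoxia flox 1. The labels do not say what a number marks. The other comparisons were not paired, though in hypoxia against normoxia in KO number 5 gave r = 0.40. Numbers 1, 2 and 4 gave -0.49, 0.15 and -0.05 there. No 2 libraries of the same group agreed within sampling noise, and pairs across groups were not compared in this way. Members and lists were chosen with earlier results of these data known. The rule named all members, up to 4 called genes per list and comparison by adjusted p, and the 3 genes most like each member. Other genes named from the lists (Ehd2, Fcgrt in hypoxia and the uncalled clathrin and iron genes) were chosen after their values were seen. Sequences are RefSeq promoter windows, searched on both strands.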

Additional observations from a re-analysis of the deposited data

Results flagged for a closer look

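In 3 of the 28 combinations of gene and group, 1 library stood apart from the rest of its group, by a rule that flags about 1 in 20 by chance. Cav1 reached 807.6 CPM in Hypoxia KO 4, against 575 to 615 CPM in the other 4 Hypoxia KO libraries. That library also had the lowest Mfsd2a, Tfrc and Cavin2 of its group, and it was the only one of them with Y-linked counts above 1 CPM. Cav1 reached 589 CPM in Normoxia KO 6, against 448 to 488 CPM in the other 4 Normoxia KO libraries. Cavin1 was at 508 CPM in Normoxia flox 4, against 649 to 672 CPM in the other 3 Normoxia flox libraries. Normoxia flox 4 is the library with most neuron markers, and its summed endothelial markers, 12551 CPM, were the lowest of the 18.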

How the results depend on the processing

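Of the called results named here, only Alpl in KO against flox in normoxia changed sign, to 0.16 with the smooth muscle covariate. Several uncalled members changed sign in some alternatives, among them Cav1 in KO against flox in normoxia (-0.07 to 0.27) and Mfsd2a in hypoxia against normoxia in flox (-0.10 to 0.12). Mfsd2a in KO against flox in normoxia kept its sign in all 26 alternatives and its call in 17. It lost the call with scaling on summed endothelial markers (-0.35), with only the groups compared (-0.56), with the replicate block over all 18 libraries (-0.45) or over shared numbers (-0.49) and with the smooth muscle covariate (-0.28), and ran from -0.72 to -0.51 with each library left out. Members were called in some alternatives only. In normoxia KO against flox, endothelial scaling called Cavin1 (0.39) and Cavin2 (0.32), and Cav2 was called without the neuron-marker libraries (-0.33) or without the 3 libraries in which Xist and Y-linked genes were both counted (-0.31), and ran from -0.40 to -0.21 with each library left out. In hypoxia KO against flox, Mfsd2a was called with library sizes alone (-0.52), with limma-trend on log2(RPKM + 0.1) (-0.52) or log2(RPKM + 1) (-0.52) and without the neuron-marker libraries (-0.38), and endothelial scaling called Cav1 (0.45) and Cavin1 (0.30). In hypoxia against normoxia in KO, DESeq2 called Cav1 (0.41), and endothelial scaling (-0.38) and leaving out the neuron-marker libraries (-0.32) or the 3 mixed libraries (-0.32) called Cavin2. The number of members called was therefore 0 to 2 for KO against flox in normoxia (0 to 2 with each library left out), 0 to 2 in hypoxia, 0 or 1 for hypoxia in KO, and 0 throughout for hypoxia in flox and the interaction. The cause of these changes was not tested.

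Counts over all genes moved by more than 1.5 times as follows. KO against flox in normoxia called 2905 genes, 1793 and 701 with the replicate block over all libraries and over shared numbers, and 158 with the smooth muscle covariate. In hypoxia it called 3916, and 283 with that covariate. Hypoxia in KO called 260 genes: 596 with DESeq2, 107 with only the groups compared, 43 and 0 with the 2 blocks, 430 with the sex signal, 557 with the immediate early covariate, 399 with the smooth muscle covariate, and 53 to 523 with each library left out. Hypoxia in flox called 492, with 813, 0 and 945 under DESeq2, the block over shared numbers and the immediate early covariate. The interaction called 78, with 38 under endothelial scaling, 42 under limma-trend on log2(RPKM + 1), 144 under DESeq2, 3 under the block over all libraries, 43 under the smooth muscle covariate and 28 to 98 with each library left out. Outside normoxia KO against flox the replicate block changed no call of a member. Of the called genes, 57.6% were higher in KO in normoxia and 50.9% in hypoxia, against 43.7% and 28.2% with library sizes alone and 80.4% and 71.9% with endothelial scaling. Relative to the scaling used, library sizes alone moved the median of all genes by -0.08 in normoxia and -0.16 in hypoxia, and endothelial scaling by 0.16 in each. Precision is limited by the spread of Plvap and by 4 or 5 libraries a group.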
